A study of Mus musculus with 2 samples.

Results

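The 6 genes C1ql1, C1ql2, C1ql3, Cbln1, Cbln2 and Cbln4, which code for C1q-like and cerebellin synaptic organisers, were picked by symbol from the 32285 genes of the count tables. All 6 were present under a single identifier, and their levels are described over marker-defined regions in each section. The data were 2 coronal sections, 1 from each of 2 mice, measured with 10x Visium, in which barcoded spots, each larger than a neuron, count RNA molecules (UMIs). The designer receptor hM3Dq was present in both mice and its ligand CNO had been given to both, so there was no untreated section. Mouse 1 carried the genotype label WT:C57BL/6J control and mouse 2 the label WT:CRISPR-Cas9 edited isogenic control. The sources used here do not give the promoter or cells that drove hM3Dq, or the ages of the mice. Each section was 10 µm thick and was cut 1.9 mm behind bregma, with hippocampus on either side, while the injection site was 4.6 mm behind bregma.

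C1q-like proteins and cerebellins are secreted relatives of the complement protein C1q that act in the cleft between neurons instead of in immunity. They form multimers that hold a presynaptic receptor, often a neurexin, to a postsynaptic one. Cbln1 is released by cerebellar granule cells onto Purkinje cells, and Cbln4 also binds Dcc and Neo1. C1ql1 is released by climbing fibres onto Purkinje cells, and C1ql2 and C1ql3 are made by dentate granule cells, whose mossy fibres contact CA3. Their postsynaptic partners include the adhesion receptor Adgrb3 and, for C1ql2 and C1ql3, the kainate receptor subunits Grik2 and Grik4.

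Mouse 1 gave 30670901 UMIs and mouse 2 gave 55315816, over 3712 and 3548 spots used. Over the whole section the members held between 278 and 824 UMIs each in mouse 1, and between 584 and 1666 in mouse 2. Levels are CPM, the UMIs of a gene per 1e6 UMIs of the region, so fewer cells of a type and less RNA per cell cannot be told apart. CPM are not scaled to gene length and set no order between genes. Intervals in brackets are exact Poisson 95% intervals, the limit given for a count of 0 is the level of 3 UMIs, and both cover counting error only. Each ± on a level is the SD over the 2 mice (n = 2), and each ± on a log2 fold change is the SE of the fit. The libraries shared 3369 spot barcodes, which are array positions and not cells.

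Regions were drawn without the members. The dentate region carried 7 of 8 granule layer markers and held 61 spots in mouse 1 and 86 in mouse 2. The habenula region carried 5 of 9 markers, the reticular thalamus 8 of 9, the midline thalamus 3 of 5 and layer 6 of the neocortex 6 of 8. No cluster could be named for CA1, CA2/CA3, the upper layers, layer 4, layer 5 or the retrosplenial cortex, so 590 spots were placed there by their marker scores. Another 665 spots in mouse 1 and 485 in mouse 2 stayed unnamed and were in no comparison. A spot mixes cells, so these are areas of tissue. Of 5 genes followed as a sign of RNA quality, between 1 and 4 passed the test in each comparison between regions, and their part in the results was not tested.

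Across the whole section C1ql3 stood at 26.9 CPM in mouse 1 and 30.1 in mouse 2, Cbln1 at 22.1 and 23.7, and Cbln2 at 22 and 27.3. C1ql1 stood at 9.59 and 10.6 CPM and Cbln4 at 11.4 and 13.1. The level of C1ql2 was 9.06 CPM in mouse 1 and 15.5 in mouse 2, and the dentate region held 1.66% and 2.95% of the UMIs of these sections. Within regions the direction varied, with 181 and 244 CPM in the dentate region and 11.6 and 6.31 in the hypothalamus. The part of the make-up of the sections in the C1ql2 levels was not tested. The relatives C1ql4, with 2 and 3 UMIs, and Cbln3, with 3 and 13, were barely detected. Each genotype label had 1 section, so no test between the mice was made.

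**Figure D1:**
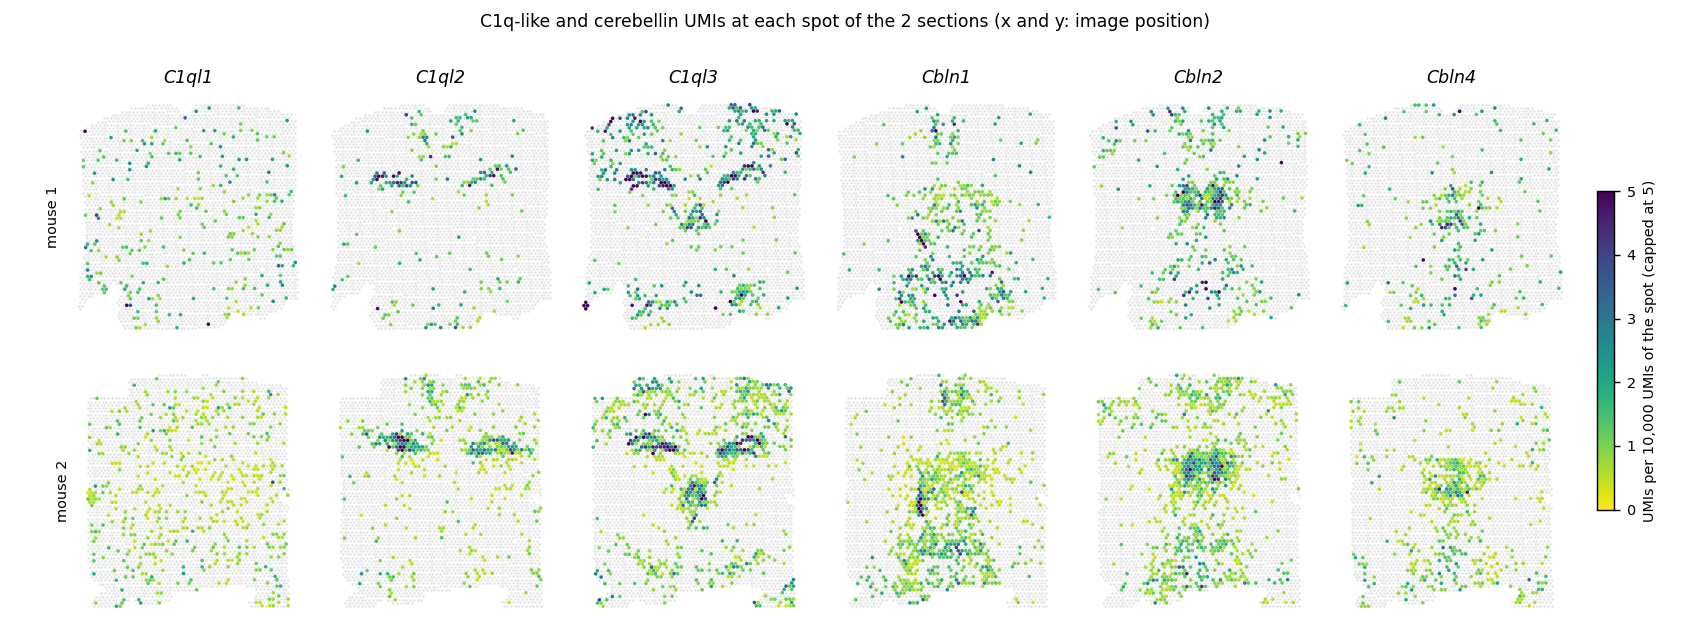
Spots of both sections at their image positions, coloured by the UMIs of each member per 10,000 UMIs of the spot (grey, 0 UMIs; scale capped at 5). C1ql2 marks the dentate blades, C1ql3 the blades, the cortex and the midline thalamus, Cbln2 the habenula, and C1ql1 is scattered.

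C1ql2 and C1ql3 were the members of the dentate gyrus. C1ql2 (ENSMUSG00000036907) stood at 181 CPM (146 to 222) in the dentate region of mouse 1 and 244 (221 to 269) in that of mouse 2. It stood at 2.49 and 4.23 CPM in CA1, and at 0 and 3.63 in CA2/CA3, from 0 and 2 UMIs. The levels did not overlap, and the dentate region held 33.1% and 46.4% of all C1ql2 UMIs. C1ql3 (ENSMUSG00000049630) stood at 328 CPM (280 to 382) and 291 (266 to 319) in the dentate region. In CA1 it stood at 58.6 and 59.9 CPM, and in CA2/CA3 at 0 and 10.9.

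Against the CA1 and CA2/CA3 regions together, 3 of the 6 members passed the filter on low counts in the dentate comparison, and all 3 were called higher, where 8.93% of the 10018 genes tested were called higher and 8.2% lower (17.1% in all). C1ql2 rose by 6.10 ± 0.27 on the log2 scale (adjusted p = 1.11e-107). In mouse 1 its CA level rested on 2 UMIs, and the ratio of CPM there was 91.5 (24.6 to 767). The rise was 5.32 without mouse 2, 4.97 with regions drawn by marker scores and 5.28 with centred sections, all still called where tested. C1ql3 rose by 2.80 ± 0.16 (adjusted p = 2.10e-60). Cbln2 averaged 14 ± 5.14 CPM in the dentate region and 4.92 ± 1.38 in the CA regions, and its rise of 1.32 ± 0.46 (adjusted p = 0.0283) was lost under 6 alternatives, among them DESeq2 and the fit without the mouse block. It was 0.72 without mouse 1.

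CA2/CA3 and CA1 differed in C1ql3. It was the only member past the count filter between these layers, and it was lower in CA2/CA3 by 2.88 on the log2 scale (SE 0.46, adjusted p = 1.16e-08; 6.57% of genes called higher, 6.35% lower and 12.9% in all). The difference was -2.28 without mouse 1, resting on 6 UMIs in CA2/CA3 of mouse 2, and -3.99 without mouse 2, resting on 0 UMIs in mouse 1. In mouse 1 the level of 3 UMIs there is 14.2 CPM, and the upper Poisson bound is 17.5. The receptor subunit Grik4, which was not used to place the CA2/CA3 spots, averaged 67.1 ± 41.2 CPM in CA2/CA3 and 5.50 ± 2.49 in CA1, a rise of 3.65 ± 0.39 (adjusted p = 8.54e-19).

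The 250 bases upstream of the RefSeq start of C1ql2 and C1ql3 are shown because these genes rose together in the dentate region. They lie at chr1:120340332-120340581 on the plus strand and chr2:13010865-13011114 on the minus strand of GRCm38.p6, and the sequences are those of RefSeq for that build. Capitals mark an E-box, CANNTG, the motif bound by basic helix-loop-helix factors.
C1ql2: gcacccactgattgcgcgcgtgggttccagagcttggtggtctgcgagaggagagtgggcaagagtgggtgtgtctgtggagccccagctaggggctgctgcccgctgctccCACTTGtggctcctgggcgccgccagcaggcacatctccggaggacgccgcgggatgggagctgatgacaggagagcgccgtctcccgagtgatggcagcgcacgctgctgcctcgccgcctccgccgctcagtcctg
C1ql3: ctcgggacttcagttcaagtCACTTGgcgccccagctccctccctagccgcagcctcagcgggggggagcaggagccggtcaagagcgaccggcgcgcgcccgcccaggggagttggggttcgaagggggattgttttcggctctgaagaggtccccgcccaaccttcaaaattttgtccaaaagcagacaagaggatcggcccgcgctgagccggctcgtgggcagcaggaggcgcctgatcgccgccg
Each window held 1 E-box, and in both it read CACTTG in the printed direction. An E-box was present in 66.2% of the 32851 windows of this length, and the share holding CACTTG itself was not counted. Neither held the AP-1 motif TGANTCA (6.75% of windows) or the cAMP response element TGACGTCA (1.55% of windows), searched on both strands. A match is a description of the letters and not of binding. The windows were 68.8% and 66.4% G and C.

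C1ql2 UMIs fell off over the spots around the dentate region, as the plot of level by distance shows. In mouse 1 C1ql2 stood at 29.6 CPM at 1 array step from the nearest dentate spot and at 7.33 CPM at 2 steps. In mouse 2 it stood at 60.9 and 19.5 CPM at these distances, and at 15.6 CPM at 3 steps and 4.07 CPM at 6. C1ql3 stood at 55.6 and 62.4 CPM at 1 step, fell to 8.16 and 9.34 CPM at 4 steps, and was at 30.8 and 30.0 CPM at 6 steps. Each distance took in all spots used, whatever their region, so the mix of tissue could change with distance, and its part was not tested. The region that the distance is measured from was drawn without either gene.

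**Figure D2:**
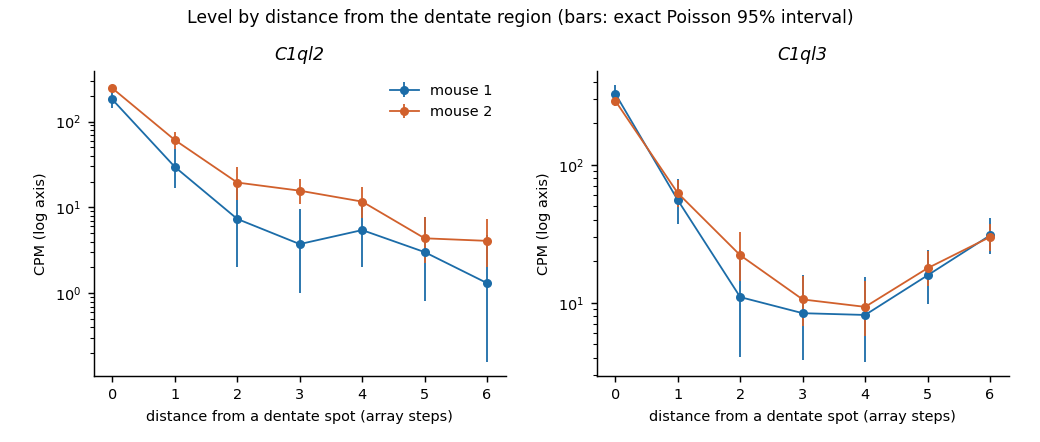
CPM of C1ql2 and C1ql3 (log axis) by distance from the nearest dentate spot in array steps, for each mouse, with exact Poisson 95% intervals. Spots of all regions are included. Both genes fall steeply within 2 steps, and C1ql3 is higher again at 6 steps, at 30.8 CPM in mouse 1 and 30.0 in mouse 2.

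The cell layers (dentate, CA1 and CA2/CA3 together) were set against the hippocampal neuropil, where dendrites and axons lie. All 6 members were tested, 2 were called higher and 2 lower, where 15.5% of genes were called higher and 17.3% lower (32.8% in all). C1ql2 averaged 84 ± 31.5 CPM in the layers and 20.7 ± 9.40 in neuropil, a rise of 1.79 ± 0.16 (adjusted p = 4.43e-26). C1ql3 averaged 146 ± 7.63 CPM and 31.6 ± 0.445, a rise of 2.03 ± 0.14 (adjusted p = 4.91e-48). With centred sections these rises were 1.03 and 1.28 and were still called. Cbln2 averaged 8.18 ± 0.512 CPM in the layers and 16.9 ± 0.800 in neuropil, a fall of 1.29 on the log2 scale (SE 0.29, adjusted p = 7.20e-05) that stood at 0.02 with marker scores. C1ql1 averaged 6.67 ± 1.99 and 10.8 ± 1.58 CPM, a fall of 0.83 (SE 0.33, adjusted p = 0.0381) that was lost under 5 alternatives. Of 8 interneuron markers 5 were lower in the layers, and of 8 markers of oligodendrocyte precursors 6 were tested and 5 were lower. Their medians were -0.48 and -1.19, against 0.02 over all genes. Sst averaged 270 ± 32.8 CPM in the layers and 382 ± 152 in neuropil (-0.78 ± 0.08, adjusted p = 8.04e-23). Their part in the values of Cbln2 and C1ql1 was not tested.

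A list of 17 related genes, called partners here for short, was followed in the same comparisons. It held 4 cerebellin receptors, 3 C1q-like receptors, 3 neurexins and 7 other neurexin ligands. These 7 were listed as further ligands of neurexins and not as receptors of the members. In the dentate region against CA, 16 were tested, 3 were higher and 4 lower, and the list's median was -0.13, against 0.03 over all genes. Lrrtm4, a postsynaptic neurexin ligand, averaged 49.7 ± 12.0 CPM in the dentate region and 6.06 ± 2.98 in CA (3.03 ± 0.33, adjusted p = 2.74e-18). Lrrtm3 rose by 1.1 ± 0.36 (adjusted p = 0.0166) and Grik2 by 1.07 ± 0.30 (adjusted p = 0.00382). Between the cell layers and neuropil 4 of 17 were higher and 1 lower, with a median of 0.22, against 0.02. Between CA2/CA3 and CA1, 14 partners were tested, with 2 higher and 1 lower. Grik4 was one of those that rose, and Adgrb3 fell to 55.8 ± 18.6 CPM in CA2/CA3, against 130 ± 1.99 in CA1 (-1.07 ± 0.23, adjusted p = 6.23e-05).

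**Figure D3:**
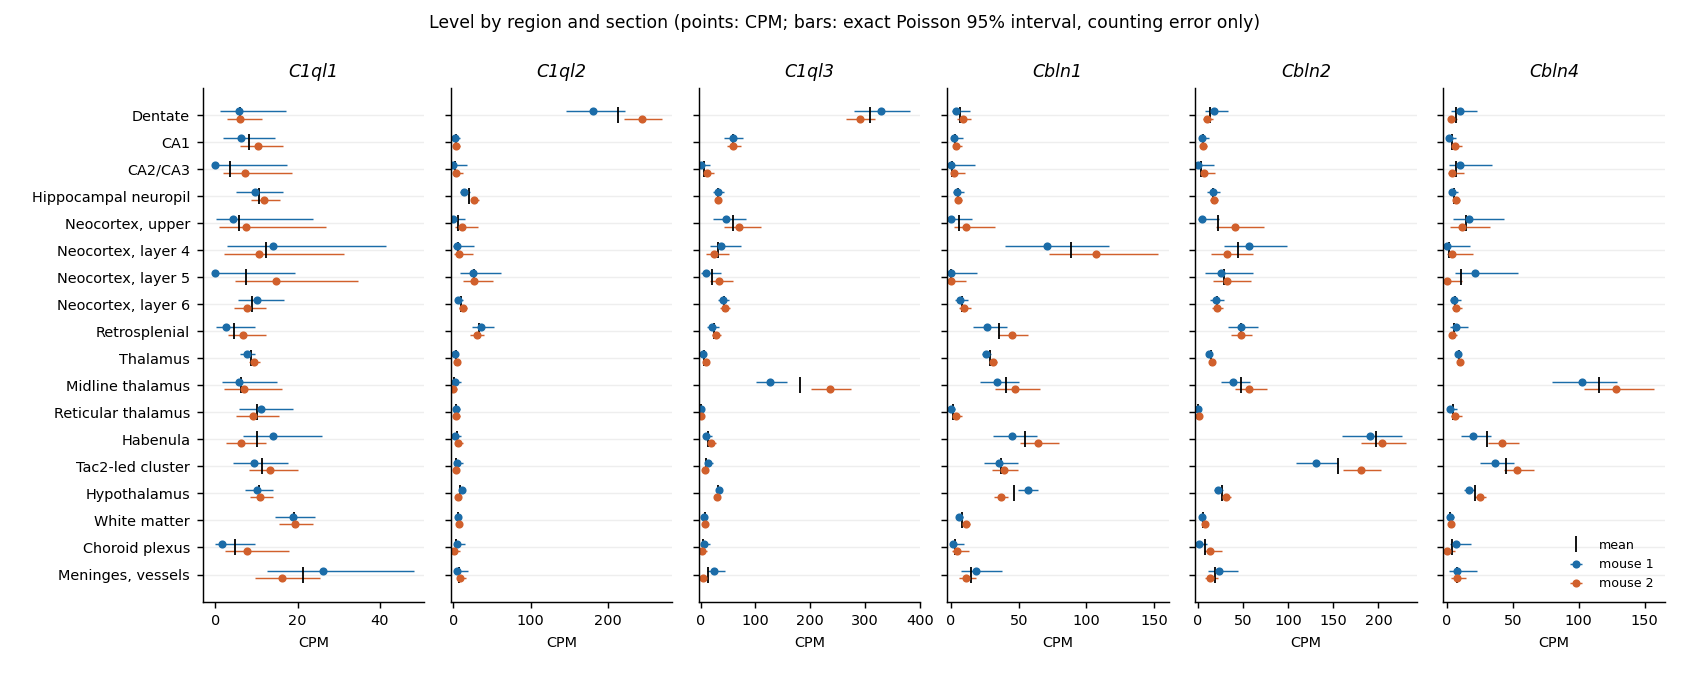
CPM of each member (x axis) in 18 regions (rows), with a point per mouse, an exact Poisson 95% interval and a bar at the mean. C1ql2 and C1ql3 peak in the dentate region, Cbln1 in layer 4, Cbln2 in the habenula and Cbln4 in the midline thalamus. The axis range differs between genes.

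The hippocampus as a whole (cell layers and neuropil) carried more C1ql2 and C1ql3 and less Cbln1 and Cbln2 than the neocortex. C1ql2 averaged 52.4 ± 18.4 CPM in the hippocampus and 16.8 ± 2.58 in the neocortex, and C1ql3 averaged 89.3 ± 0.272 and 36.2 ± 3.51. Cbln1 averaged 4.38 ± 1.27 CPM in the hippocampus and 20.8 ± 7.37 in the neocortex, and Cbln2 averaged 12.5 ± 0.434 and 30.7 ± 2.17. Layer 6 gave 1488602 of the 2878371 neocortical UMIs in mouse 1 and 2299917 of 4681153 in mouse 2. Neocortical Cbln1 UMIs lay mainly in retrosplenial spots (20 and 67) and layer 4 (15 and 30), with 10 and 22 in layer 6. Of 6 members tested, 2 were called higher and 2 lower, where 14.3% of genes were called higher and 14.4% lower (28.7% in all). C1ql2 rose by 1.69 ± 0.14 (adjusted p = 5.67e-24) and C1ql3 by 1.3 ± 0.11 (adjusted p = 7.28e-23). Cbln1 fell by 2.26 on the log2 scale (SE 0.23, adjusted p = 1.23e-17) and Cbln2 by 1.3 (SE 0.17, adjusted p = 5.80e-12). C1ql1 differed by 0.22 ± 0.26 (adjusted p = 0.576) and Cbln4 by -0.20 ± 0.31 (adjusted p = 0.697). Of 17 partners, 5 were higher and 3 lower (median 0.03), among them Lrrtm3 (-1.45 ± 0.14, adjusted p = 5.24e-20) and Dcc (0.77 ± 0.26, adjusted p = 0.0160). Of 8 interneuron markers 1 was higher and 5 lower in the hippocampus.

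Within the neocortex Cbln1 was highest in layer 4. Cbln1 (ENSMUSG00000031654) stood at 70.7 CPM (39.6 to 117) and 107 (72.3 to 153) in layer 4. In the upper layers it stood at 0 and 11.2 CPM, in layer 5 at 0 in both mice, and in layer 6 at 6.72 and 9.57 CPM. In layer 5 of mouse 1 the level of 3 UMIs is 15.7 CPM and the upper Poisson bound 19.3, and the region held 28 and 21 spots. The 2 levels in layer 4, from 15 and 30 UMIs, lay above those of every other region. The habenula was next at 45.2 CPM (30.9 to 63.8) and 64.2 (51.1 to 79.7), and its counting intervals overlapped with those of layer 4. A finer thalamic cluster led by Calb1 and Spon1, described below, had levels within the range of layer 4. In deep layers (5 and 6) Cbln1 averaged 7.15 ± 1.69 CPM, against 46.8 ± 18.8 in the upper layers with layer 4, a fall of 2.79 on the log2 scale (SE 0.37, adjusted p = 6.23e-12), which was 2.18 without mouse 2. It was the only one of 4 tested members that was called, where 2.93% of genes were called higher and 3.3% lower (6.24% in all). C1ql2 differed by 0.88 ± 0.62 (adjusted p = 0.536), C1ql3 by -0.23 ± 0.26 (adjusted p = 0.761) and Cbln2 by -0.67 ± 0.32 (adjusted p = 0.254). Of 16 partners tested, 2 were lower in the deep layers (median 0.14, against -0.01 over all genes), among them Lrrtm1 (-0.67 ± 0.22, adjusted p = 0.0381). Pvalb, Vip and Gad2 were the 3 of 8 interneuron markers that were lower there.

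C1ql3 was spread over the layers instead. It stood at 46.8 and 70.6 CPM in the upper layers, 37.7 and 25 in layer 4, 10.5 and 32.7 in layer 5, and 41.0 and 44.3 in layer 6. By these levels the upper layers lay above layer 6 in both mice, and layer 6 above layers 4 and 5, which overlapped with each other. The upper layers rested on 11 and 19 UMIs and layer 4 on 8 and 7. The counting intervals overlapped in both mice, so they do not settle this order. In mouse 1 they were 23.3 to 83.7 in the upper layers, 31.3 to 52.6 in layer 6, 16.3 to 74.3 in layer 4 and 1.27 to 37.8 in layer 5. In mouse 2 they were 42.5 to 110, 36.2 to 53.8, 10.1 to 51.5 and 16.3 to 58.5.

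The retrosplenial cortex, which borders the midline above the corpus callosum, carried more C1ql2, Cbln1 and Cbln2 than the other neocortical regions pooled. Layer 6 gave most UMIs of that pool, with 1488602 of 2126964 in mouse 1 and 2299917 of 3185496 in mouse 2. Layer 4 alone stood higher in Cbln1, at 70.7 and 107 CPM. Its Cbln2 level was 56.6 CPM in mouse 1, also above the retrosplenial level, and 32.2 in mouse 2, below it. In layer 5 C1ql2 stood at 26.2 and 26.7 CPM, from 5 and 9 UMIs, below the retrosplenial level in both mice. The upper Poisson bounds in layer 5, 61.1 and 50.7, lay above the retrosplenial levels, so the counts do not settle this order. Layer 5 was not tested alone. C1ql2 stood at 35.9 and 30.1 CPM in retrosplenial spots and at 7.52 and 13.2 in the other neocortical spots. Cbln1 stood at 26.6 and 44.8 CPM, against 11.8 and 17.3, and Cbln2 at 47.9 and 47.5 CPM, against 22.6 and 25.1. The mice did not overlap between the retrosplenial and the pooled spots for any of the 3 genes. Of 6 members tested, 3 were called higher and 1 lower, where 3.76% of genes were called higher and 3.79% lower (7.55% in all). C1ql2 rose by 1.58 ± 0.27 (adjusted p = 9.15e-07), Cbln1 by 1.35 ± 0.24 (adjusted p = 2.06e-06) and Cbln2 by 1.01 ± 0.20 (adjusted p = 4.98e-05). C1ql3 stood at 20.0 and 28.1 CPM, against 38.6 and 43.6, a fall of 0.70 (SE 0.21, adjusted p = 0.02) that was lost under 4 alternatives. DESeq2 gave no adjusted p to any of the 6 members here. Of 17 partners (median -0.02) only Lrrtm2 passed (-1.15 ± 0.19, adjusted p = 3.67e-07), and of 8 interneuron markers 2 were higher and 2 lower (median 0.14). Pvalb averaged 794 ± 25.3 CPM in retrosplenial spots and 353 ± 24.8 in the others, and Npy 168 ± 21.6 and 290.2 ± 14.4.

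The thalamic regions, taken without the reticular thalamus, had less C1ql2, C1ql3 and Cbln2 and more Cbln4 and Cbln1 than the neocortex. C1ql2 averaged 3.35 ± 1.16 CPM in the thalamic regions and 16.8 ± 2.58 in the neocortex. Cbln4 (ENSMUSG00000067578) averaged 14.1 ± 0.624 CPM, against 6.32 ± 1.38, and Cbln1 29.1 ± 3.56, against 20.8 ± 7.37. Per mouse Cbln1 stood at 26.6 and 31.7 CPM in the thalamic regions and 15.6 and 26.1 in the neocortex, without overlap. All 6 members were tested, 2 were called higher and 3 lower, where 23.8% of genes were called higher and 24.8% lower (48.6% in all), so a call was common here. C1ql2 fell by 2.39 on the log2 scale (SE 0.22, adjusted p = 2.74e-26), C1ql3 by 1.36 (SE 0.13, adjusted p = 5.61e-25) and Cbln2 by 1.06 (SE 0.13, adjusted p = 2.00e-14). Cbln4 rose by 1.09 ± 0.22 (adjusted p = 2.89e-06) and was lost with DESeq2. The midline thalamus gave 70 and 93 of its thalamic UMIs, and the other thalamic spots 80 and 183. Those other spots stood at 8.33 and 9.42 CPM and were not tested alone. The rise of Cbln1, 0.33 ± 0.13 (adjusted p = 0.0256), was lost under 6 alternatives. Of 17 partners 9 were higher and 3 lower, with a median of 0.46, against 0.01 over all genes. The neurexin Nrxn3 averaged 322 ± 28.2 CPM in the thalamic regions and 105 ± 1.13 in the neocortex (1.51 ± 0.07, adjusted p = 2.09e-97). Lrrtm1 rose by 1.99 ± 0.08 (adjusted p = 5.08e-123) and Lrrtm2 by 1.05 ± 0.08 (adjusted p = 1.34e-34). All 8 interneuron markers were lower in the thalamus.

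Within the thalamus the regions differed. In the midline thalamus C1ql3 stood at 127 CPM (102 to 157) in mouse 1 and 236 (202 to 274) in mouse 2, and in the other thalamic spots at 4.06 and 9.52. Cbln4 stood at 102 and 128 CPM there, against 8.33 and 9.42, and Cbln2 at 39.4 and 56.6, against 12.1 and 16.1. The midline region held 70 and 30 spots and was the highest of 18 regions for Cbln4. The reticular thalamus, a shell of inhibitory neurons that was not part of the thalamic regions tested, was low in C1ql3, Cbln2 and Cbln1. C1ql3 had 1 and 0 UMIs there, Cbln2 0 and 2, and Cbln1 0 and 5, where 3 UMIs are worth 2.56 CPM in mouse 1. No test was made between these nuclei, and the regions of the midline differed in extent between the sections.

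A clustering with the sections centred, added after the data were seen, split the thalamus further. Cbln1 stood at 104 and 90.0 CPM in the cluster led by Calb1 and Spon1, at 41.7 and 65.1 in the one led by Ramp3 and Prkcd, and at 13.8 and 21.0 in the one led by Prkcd and Zfp804a. It stood at 3.02 and 4.59 CPM, and at 7.15 and 5.50, in the clusters led by Tnnt1 and Pcp4. In the cluster led by Necab1 and Gbx2, C1ql3 stood at 70.1 and 96.1 CPM and Cbln4 at 63.5 and 51.4. Cbln1 and C1ql3 peaked in different clusters of the thalamus in both mice, and Cbln4 was high in both of theirs, with 43.1 and 23.7 CPM in the cluster led by Calb1 and Spon1.

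A dense patch of Cbln1 was visible on the image left of the thalamus in both maps, and it was examined because it was seen there. In the cluster led by Ramp3 and Prkcd, Cbln1 stood at 57.5 CPM (44.9 to 72.5) on the left of mouse 1 and 91.4 (76.9 to 108) on the left of mouse 2. On the right it stood at 24.2 (15.9 to 35.2) and 37.3 (28.1 to 48.7). The counting intervals did not overlap in either mouse, and the cluster held 138 and 91 spots on the left and 123 and 87 on the right. These intervals do not allow for the choice of gene, side and cluster after the maps were seen. In the cluster led by Calb1 and Spon1 the order differed between the mice, with 120 and 65.2 CPM on the left and 83.6 and 116 on the right. In the cluster led by Prkcd and Zfp804a Cbln1 stood at 7.45 and 24.3 CPM on the left and 21.2 and 17.3 on the right. The cluster led by Necab1 and Gbx2 had 29.7 and 58.0 CPM on the left and 29.3 and 38.6 on the right. A further thalamic cluster had 29.2 and 29.3 CPM on the left and more on the right in both mice, at 40.5 and 32.1. Over the whole thalamus region it stood at 27 and 36.0 CPM on the left and 25.1 and 26.1 on the right. The difference was not seen in every cluster, and no test over samples was made.

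Cbln2 marked the habenula, a small epithalamic nucleus that sends axons to the midbrain. Cbln2 (ENSMUSG00000024647) stood at 191 CPM (160 to 226) in the habenula of mouse 1 and 204 (180 to 231) in that of mouse 2. In the neighbouring cluster led by Tac2, which carried 7 habenular and 7 ependymal markers and was left unnamed, it stood at 131 and 181 CPM. In the thalamic regions it stood at 13.9 and 17.6 CPM. The habenula held 20.0% and 17.3% of all Cbln2 UMIs and the Tac2-led cluster 18.7% and 19.9%. The 2 levels of each lay above those of the next region in order. All 6 members were tested against the thalamic regions and 3 were called higher, where 10.1% of genes were called higher and 12.2% lower (22.3% in all). Cbln2 rose by 3.58 ± 0.11 (adjusted p = 3.18e-204) and Cbln1 by 0.91 ± 0.16 (adjusted p = 2.79e-07). Cbln4 stood at 19.8 and 41.5 CPM in the habenula and 14.6 and 13.7 in the thalamic regions, a rise of 1.22 ± 0.22 (adjusted p = 9.56e-07) that was 0.43 without mouse 2 and was lost with DESeq2 and after thinning. C1ql1 differed by 0.04 ± 0.39 (adjusted p = 0.968), C1ql2 by 0.45 ± 0.55 (adjusted p = 0.633) and C1ql3 by -0.05 ± 0.28 (adjusted p = 0.939), which with centred sections was called lower at -0.84 (adjusted p = 0.0110). The thalamic regions included the midline thalamus, with 87 and 171 C1ql3 UMIs, against 39 and 185 in the other thalamic spots. C1ql3 stood at 9.89 and 18.8 CPM in the habenula and 4.06 and 9.52 in those other spots, a difference that was not tested.

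Of 17 partners 1 was higher in the habenula and 4 were lower (median -0.09). Nrxn3 averaged 90.7 ± 12.4 CPM in the habenula and 322 ± 28.2 in the thalamic regions, a fall of 1.85 on the log2 scale (SE 0.10, adjusted p = 4.98e-69). Lrrtm1 fell by 1.18 (SE 0.10, adjusted p = 1.23e-27) and Lrrtm2 by 1.08 (SE 0.13, adjusted p = 1.83e-15). Cbln2 rose where Nrxn3 fell, while Lrrtm1 and Lrrtm2 are on the list as other neurexin ligands. The 4 cerebellin receptors were tested and 0 were called (median 0.21), and 12 of the 17 partners were not called.

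**Figure D4:**
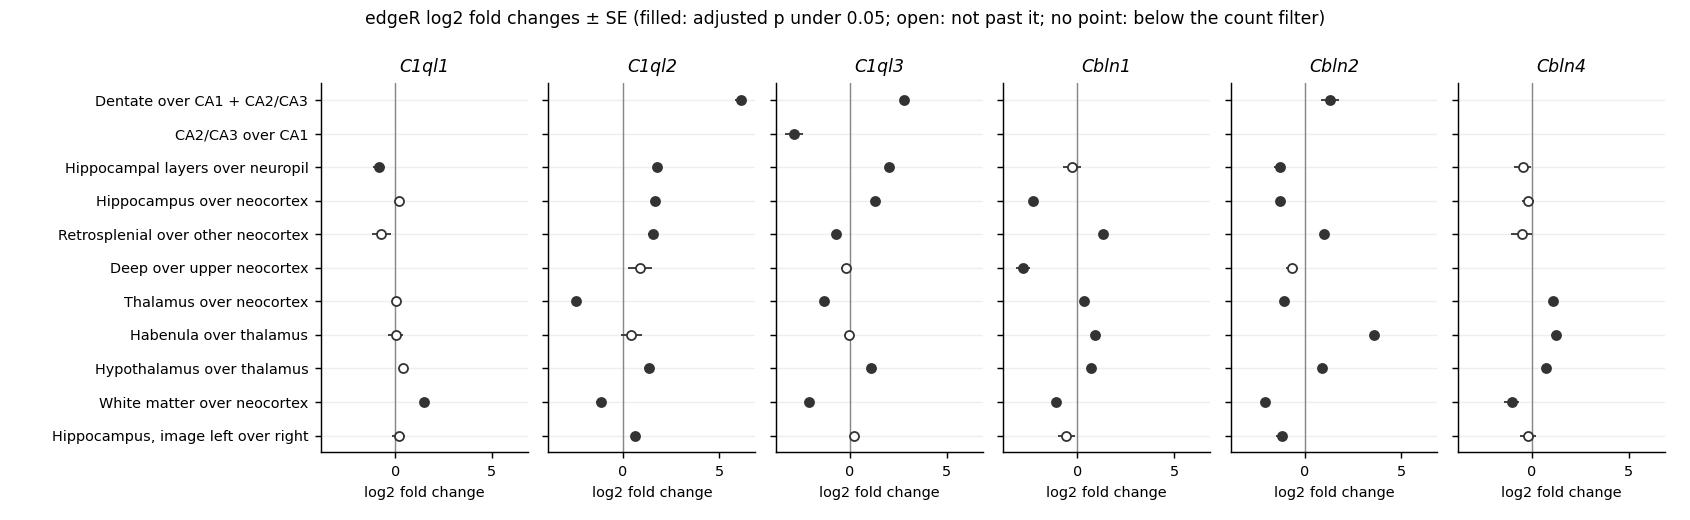
edgeR log2 fold changes (x axis, ± SE) of the members in the 11 comparisons (rows). Filled points passed an adjusted p of 0.05, and members below the count filter have no point. The highest value is C1ql2 in the dentate region, at 6.10, followed by Cbln2 in the habenula, at 3.58.

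In the hypothalamus 5 of the 6 members were higher than in the thalamic regions, where 24.9% of genes were called higher and 25.2% lower (50.1% in all). Cbln1 stood at 56.5 and 36.7 CPM in the hypothalamus and 26.6 and 31.7 in the thalamic regions (0.72 ± 0.13, adjusted p = 2.24e-06). C1ql3 stood at 33.1 and 29.2 CPM, against 12.2 and 17.7 (1.11 ± 0.14, adjusted p = 2.99e-10), and Cbln2 at 22.6 and 31.6, against 13.9 and 17.6 (0.88 ± 0.14, adjusted p = 9.42e-08). Cbln4 stood at 16.7 and 25.2 CPM, against 14.6 and 13.7, and its rise of 0.71 ± 0.16 (adjusted p = 7.43e-05) was lost with DESeq2. In the midline thalamus alone Cbln4 stood at 102 and 128 CPM, above the hypothalamus. C1ql2 stood at 11.6 and 6.31 CPM, against 2.53 and 4.17 (1.35 ± 0.27, adjusted p = 1.51e-05), and the rise was 0.58 without mouse 1 and 2.08 without mouse 2. C1ql1 differed by 0.40 ± 0.20 (adjusted p = 0.0940) and passed at resolution 1 (0.46, adjusted p = 0.0216) and after thinning (0.52, adjusted p = 0.0445).

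Among hypothalamic clusters with centred sections, Cbln1 stood at 63.6 and 50.4 CPM in the one led by Hcrt and Pmch, the genes of orexin and melanin-concentrating hormone. It stood at 44.5 and 59.7 CPM in the one led by Gal and Cartpt, and at 8.04 and 7.67 in the one led by Penk and Hap1. C1ql3 stood at 58.8 and 32.6 CPM in the first of these and at 38.6 and 29.8 in the last. Of 17 partners 4 were higher in the hypothalamus and 5 lower (median -0.03), among them Lrrtm1 (-2.09 ± 0.12, adjusted p = 2.46e-26) and Lrrtm2 (-1.76 ± 0.12, adjusted p = 1.24e-22). Of 8 interneuron markers 6 were higher and 1 lower, with a median of 2.11.

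C1ql1 (ENSMUSG00000045532), which is also known in oligodendrocyte precursors, was the member of the white matter. It stood at 18.8 CPM (14.4 to 24.2) and 19.4 (15.5 to 23.8) there, and at 7.30 and 8.12 in the neocortex, so the mice did not overlap. In order of mean level the meninges came first, at 26.3 and 16.1 CPM from 10 and 18 UMIs, and overlapped with the white matter. The white matter levels lay above those of layer 4, the next region, at 14.1 and 10.7 CPM. Layer 4 rested on 3 UMIs in each mouse, and its counting intervals (2.92 to 41.3 and 2.21 to 31.3) took in the white matter levels. All 6 members were tested against the neocortex, 1 was called higher and 5 lower, where 29.1% of genes were called higher and 27.7% lower (56.9% in all). C1ql1 rose by 1.49 ± 0.23 (adjusted p = 5.04e-10) and kept its call in every alternative tested. Each of the other 5 fell, from -1.06 ± 0.38 for Cbln4 (adjusted p = 0.0119) to -2.13 ± 0.19 for C1ql3 (adjusted p = 4.99e-27), and Cbln4 was lost under 3 alternatives and C1ql2 with DESeq2. Of the 8 markers of oligodendrocyte precursors, 7 were tested and 7 were higher in white matter, with a median of 1.49, against 0.01 over all genes. Gpr17 averaged 33.9 ± 14.8 CPM in white matter and 12.2 ± 4.49 in the neocortex. Whether the C1ql1 UMIs come from these precursors was not tested. Of 17 partners 10 were lower and 1 was higher, with a median of -0.56, and the one that was higher was the netrin receptor Neo1 (1.18 ± 0.12, adjusted p = 1.54e-20).

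The labels place the injection on 1 side but do not say which image side it is, so the image left of the hippocampal regions was set against the image right. C1ql2 stood at 47.8 and 78.6 CPM on the left and 31.1 and 52.4 on the right. Cbln2 stood at 6.33 and 8.09 CPM on the left, from 9 and 32 UMIs, and 17.9 and 17.5 on the right, from 26 and 70. All 6 members were tested, and of the 17 genes called (0.145%, with 0.0685% higher on the left and 0.077% lower) C1ql2 was higher on the left by 0.62 ± 0.13 (adjusted p = 0.00309) and Cbln2 lower by 1.18 on the log2 scale (SE 0.28, adjusted p = 0.0148). Both calls were lost with DESeq2 and without the mouse block, and Cbln2 was lost under 9 alternatives in all.

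In the dentate region alone C1ql2 stood at 221 and 289 CPM on the left and 142 and 196 on the right, a difference of 0.60 that was not called (adjusted p = 0.683). The dentate region held 17.5% and 21.5% of the hippocampal UMIs on the left and 17.9% and 19.5% on the right. CA1 held 26.5% and 17.4% on the left and 29.4% and 24.0% on the right. The mix of tissue thus differed between the sides, and its part in the pooled C1ql2 values was not tested. The other 15 genes called between the sides included 4 antibody genes, higher on the left, and 4 haemoglobin genes, lower on the left. The choroid plexus genes Ttr and Enpp2 were lower on the left by 0.65 and 0.67 on the log2 scale, and Sncg, which leads clusters at the habenula, by 1.09. The CA1 marker Wfs1 was lower on the left by 0.44, while Mobp and Tnnt1 were higher by 0.35 and 0.80. Without spots within 3 array steps of the habenula or the Tac2-led cluster, Cbln2 stood at 4.43 and 7.79 CPM on the left and 12.8 and 12.5 on the right, and its difference of -0.84 was not called (adjusted p = 0.831). C1ql2 kept its call there, at 0.68 (adjusted p = 0.00247). No partner, interneuron, precursor or RNA quality gene was called between the sides. Igkc, an antibody gene, had the largest difference between the sides, at 5.42 ± 0.22 (adjusted p = 5.38e-131), and its part in the values of C1ql2 was not tested.

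**Figure D5:**
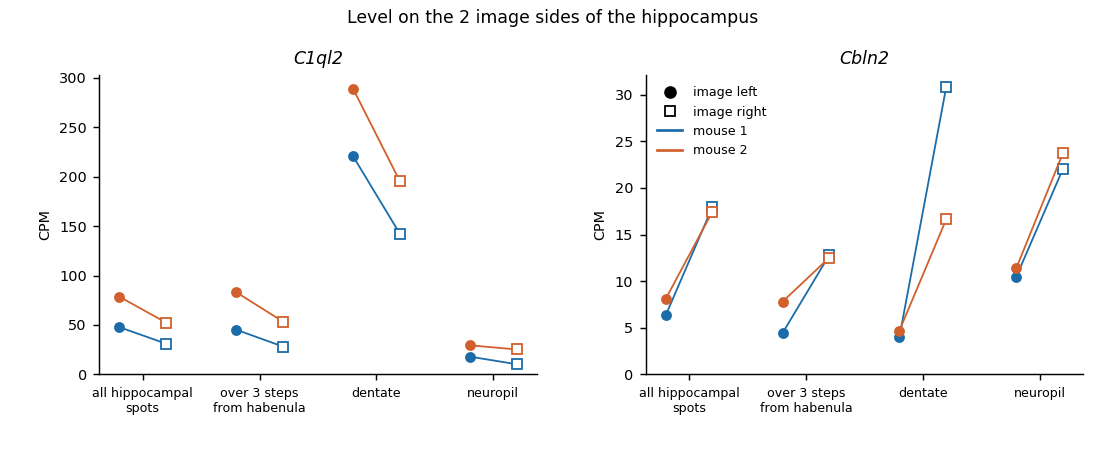
CPM of C1ql2 and Cbln2 on the image left (filled circles) and image right (open squares) for each mouse (lines), over all hippocampal spots, without those near the habenula, in the dentate region and in neuropil. In each set C1ql2 is higher on the left and Cbln2 higher on the right in both mice.

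Genes with the pattern most like each member were ranked by the lower of the 2 sections' Pearson r of log2(CPM + 1) over 17 clusters, among 10415 genes. These clusters share libraries and depth, so r is a description. Tceal1 and Prmt2 were most like Cbln4 (r of at least 0.88), Bex1 most like Cbln2 (0.83), Kcnk13 most like C1ql1 (0.81), Rps13 most like C1ql2 (0.76, followed by Rps7), Tbrg1 most like C1ql3 (0.76) and Aida most like Cbln1 (0.75). Of each top 5, only Fam163b for C1ql2 and Bex1 for Cbln2 were also in the top 5 when the clustering with centred sections was used. Fam163b was one of the markers that named the dentate region.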

How the data were processed

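RNA was measured by 10x Visium in 1 section from each of 2 mice. The deposited values are counts, whole UMIs per gene and spot, made by the authors. Per the file headers Space Ranger was at version 1.3.1, and the build was mm10 per the submitters' processing notes. The members, lists and comparisons were chosen with earlier results of these data known. Spots with at least 500 UMIs were clustered jointly in scanpy 1.11.5 (Python 3.11.15; counts scaled to 10000, 2000 variable genes without the 46 listed genes, 30 components, 15 neighbours, Leiden resolution 2). A cluster took the name of the set with the most markers, at least 3, among its 100 leading genes. It stayed unnamed when 2 sets tied, when no own marker was among its 10 leading genes, or when another set had more there (the lateral hypothalamus set counted as hypothalamus, and midline as thalamus); these 3 conditions were added after the data were seen. Where a region had no cluster, unnamed spots with a mean marker z of at least 1, highest for that set, were used; 60 of the 590 had scores up to 1.1, and 65 spots scored between 0.9 and 1. UMIs were summed per mouse and region, and genes past filterByExpr went into edgeR 4.0.16 under R 4.3.3 (quasi-likelihood fit with TMM, mouse as a block, Benjamini-Hochberg, threshold 0.05). Each fit had 1 residual degree of freedom, so the spread is pooled over genes and the SE does not give the spread between mice. The block is used because both regions of a pair come from 1 section. For each mouse alone, 2 was the prior count of its ratio. The midline was the line that best mirrored the regions (66.2% and 80.7% of spots matched). Alternatives were DESeq2 1.42.0, no filter on low counts, no mouse block, resolution 1, sections clustered alone, marker scores, all spots, thinned counts, no mitochondrial genes and either mouse alone; centred sections, the dentate region or neuropil alone for the sides, and spots away from the habenula were added after the data were seen. Named genes are the members, the relatives, in each comparison up to 3 of the 17 partners of largest change past the threshold, and up to 5 like genes per member; interneuron, precursor, stress and side genes were named after their values were seen. Some of the partners that this rule selects are not reported here.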

Additional observations from a re-analysis of the deposited data

Results flagged for a closer look

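Left over right in the thalamus, C1ql2 stood at -0.51 on the log2 scale on average (-0.44 in mouse 1 and -0.58 in mouse 2), opposite to the 0.62 of the hippocampal regions. It is listed because every mouse moved the other way, and the difference between the regions was not tested. The thalamic levels were 2.14 and 3.48 CPM on the left, from 11 and 34 UMIs, and 2.91 and 5.18 on the right, from 13 and 50 UMIs.

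Left over right in the hypothalamus, Cbln2 stood at 0.37 on average (0.15 and 0.58), opposite to the -1.18 of the hippocampal regions, and this difference was not tested either. The levels were 23.8 and 37.8 CPM on the left and 21.5 and 25.3 on the right.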

How the results depend on the processing

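Of 56 results for a member in a comparison, 38 were called and 26 of these kept their call and sign in every alternative that gave an adjusted p. No called value changed sign in either mouse alone. Of the called results, 23 of 32 kept the call with DESeq2, 32 of 38 without the replicate block, 30 of 38 with marker scores and 31 of 37 after thinning. Calls gained were C1ql1 in the hypothalamus at resolution 1 (0.46) and thinned (0.52), and C1ql3 in the habenula with centred sections (-0.84). Members called between cell layers and neuropil numbered 2 with DESeq2, which gave 4 members no adjusted p, and 2 with marker scores, against 4. Retrosplenial calls numbered 0 with DESeq2, where all 6 adjusted p-values were missing and 3 members had an unadjusted p under 0.05, against 4 with edgeR. Thalamic calls against the neocortex numbered 3 with DESeq2, against 5. Between image sides edgeR called 2 members; 1 was called with sections alone, all spots, centred sections or away from the habenula, and 0 with DESeq2, without the replicate block (2 at an unadjusted p under 0.05 in both), with marker scores (3), thinned (2), in the dentate region alone (1) or in neuropil alone (1).

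Signs that turned were those of Cbln1 (0.48) and Cbln2 (0.023) between layers and neuropil and C1ql3 (0.21) between deep and upper layers with marker scores; C1ql1 in the thalamus thinned (-0.037); C1ql1 in the habenula without the filter (-0.030) and with sections alone (-0.0068); C1ql2 in the habenula at resolution 1 (-0.10) and with centred sections (-0.11); C1ql3 in the habenula with sections alone (0.0038); and between sides C1ql1 thinned (-0.32) and in neuropil alone (-0.0026), and Cbln4 away from the habenula (0.17). Only the Cbln2 result had been called. The causes were not tested.

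Over all genes, DESeq2 called 389, 198, 819, 924, 108, 58, 3038, 894, 3619, 3463 and 4 genes in the 11 comparisons, in the order of the plot of fold changes, against 1716, 1017, 3834, 3542, 806, 593, 6620, 2907, 6964, 7128 and 17 with edgeR. Without the replicate block edgeR called 811, 565, 1773, 1707, 190 and 254 in the first 6, 1487 in the habenula and 2 between sides. Marker scores gave 853 for layers, 470 for retrosplenial, 964 for deep layers, 5459 for the habenula and 3 for sides. The habenula count was 5297 at resolution 1 and 5439 with centred sections, and thinning gave 380 for deep layers and 8 for sides. Sides gave 10 with centred sections, 3 in the dentate region, 11 in neuropil and 9 away from the habenula. Depth limits low levels: 16 of 108 levels had 0 UMIs in at least 1 section.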
